A study of Mus musculus with 10 samples.

Results

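The genes described here are those of the unfolded protein response and its ATF4 branch, 34 named genes of the 12393 genes that had a probe set with a single symbol on the array. They were chosen by gene symbol from the array's annotation, a rule that uses no measured value, but with earlier results of these arrays known. They fall by known role into 15 genes of endoplasmic reticulum (ER) folding and degradation, 9 amino acid genes of the ATF4 branch, the 3 transcription factors Atf4, Atf6 and Xbp1, and 7 stress regulators. The 34 genes had 70 probe sets, of which 68 carried a single symbol. The 2 others belonged to Phgdh and carried a further symbol. On the filter for low signal, 33 of the 34 genes passed. The exception was Slc7a1, a cationic amino acid transporter, which measured 56.5, 75.6 and 85 intensity units across wild type, 25.3, 17.7 and 13.2 across Snf5-/- and 56.7, 69.7, 10.8 and 37.1 across Brg1-/- and lay at the array's background level in 5 of the 10 arrays.

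The values are RNA levels on 10 arrays, 3 of wild type, 3 of Snf5-/- and 4 of Brg1-/- primary mouse embryonic fibroblasts (MEFs), connective tissue cells grown out of E13.5 embryos of mixed strain (C57BL/6 and 129). All 3 groups, wild type included, were infected with a retrovirus carrying Cre recombinase and selected in puromycin at 2.5 ug/ml. Smarcb1, the gene of Snf5, encodes a core subunit of SWI/SNF, a complex that moves nucleosomes, and Smarca4, the gene of Brg1, an ATPase that drives it. The labels name no allele, and they give no age of the cultures after infection and do not say whether replicates came from separate embryos, so p-values reflect only the scatter of these arrays.

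The unfolded protein response is set off when unfolded proteins build up in the ER. The sensor IRE1 splices Xbp1 mRNA and the sensor ATF6 is cut to release a transcription factor, and both factors switch on chaperones, disulfide isomerases and the machinery that returns misfolded proteins to the cytosol for degradation. A further sensor, PERK, phosphorylates the initiation factor eIF2alpha, which lowers protein synthesis while raising translation of Atf4, whose targets include amino acid synthesis and transport genes and the stress factor Ddit3 (CHOP). The kinase GCN2 reaches Atf4 in the same way when amino acids are short. Fibroblasts secrete collagen and so pass much protein through the ER. The arrays read transcript levels only, so Xbp1 splicing, ATF6 cleavage and Atf4 translation were not measured.

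The known binding motifs of the branches were looked up in RefSeq promoters (assembly GRCm38.p6), each running from 250 bases before to 50 bases after the start site, in which 31 of the 34 genes had an entry. The ER stress response element (ERSE, read by ATF6 and XBP1) was searched as CCAAT, 9 bases of any kind and CCACG. ERSE-II was searched as ATTGG, 1 base of any kind and CCACG, the core of the unfolded protein response element as TGACGTGG, and the composite element of C/EBP and ATF factors, through which ATF4 acts, as TGATGNAA. Both strands were read, and ERSE, ERSE-II and the TGACGTGG core share the letters CCACG on one strand. The 250 bases upstream of 4 genes are shown because they hold the elements of the chaperone and amino acid branches, with the matches in capitals. Each is written 5′ to 3′ on the strand of its gene, at chr2:34771840-34772089 (plus strand) for Hspa5, chr8:94386179-94386428 (plus) for Herpud1, chr6:7693210-7693459 (minus) for Asns and chr7:126625471-126625720 (minus) for Nupr1.
Hspa5: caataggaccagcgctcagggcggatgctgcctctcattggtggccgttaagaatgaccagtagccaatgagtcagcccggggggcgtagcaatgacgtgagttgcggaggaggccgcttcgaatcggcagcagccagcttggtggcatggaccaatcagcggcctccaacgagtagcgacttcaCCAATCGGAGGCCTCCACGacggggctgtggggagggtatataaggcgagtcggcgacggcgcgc
Herpud1: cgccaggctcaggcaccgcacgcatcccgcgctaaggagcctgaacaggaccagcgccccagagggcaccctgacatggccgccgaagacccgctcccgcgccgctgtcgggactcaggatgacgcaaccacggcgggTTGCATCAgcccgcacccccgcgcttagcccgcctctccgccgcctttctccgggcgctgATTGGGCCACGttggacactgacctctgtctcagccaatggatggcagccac
Asns: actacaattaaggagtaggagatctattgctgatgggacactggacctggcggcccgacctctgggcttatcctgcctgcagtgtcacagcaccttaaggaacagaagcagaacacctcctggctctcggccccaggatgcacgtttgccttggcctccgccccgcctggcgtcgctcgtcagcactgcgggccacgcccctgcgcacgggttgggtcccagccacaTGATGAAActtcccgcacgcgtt
Nupr1: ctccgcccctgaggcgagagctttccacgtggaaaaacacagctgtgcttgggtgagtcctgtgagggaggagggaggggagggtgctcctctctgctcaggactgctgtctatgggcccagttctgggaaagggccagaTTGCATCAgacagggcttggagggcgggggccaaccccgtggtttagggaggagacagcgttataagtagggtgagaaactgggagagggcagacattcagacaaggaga

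An ERSE was present in 7 of the 14 ER folding genes with an entry (Calr, Canx, Creld2, Dnajc3, Hsp90b1, Hspa5 and Pdia6), in 0 of the other members with an entry, and in 39 of all 32851 promoters of the same length (0.119%). Read in the direction of the motif, with its fixed letters in capitals, the matches compare as follows, and the first Hsp90b1 match lies nearer the start site than the second.
Hspa5: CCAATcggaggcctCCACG
Hsp90b1, first: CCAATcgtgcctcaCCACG
Hsp90b1, second: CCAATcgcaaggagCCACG
Calr: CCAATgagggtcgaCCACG
Canx: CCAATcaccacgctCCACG
Creld2: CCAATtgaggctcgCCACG
Dnajc3: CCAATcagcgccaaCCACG
Pdia6: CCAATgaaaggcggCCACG

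Hsp90b1 was the one member with 2 matches. The ERSE of Hspa5 began 65 bases before its start site, counted from the end farther from it. Herpud1 alone held ERSE-II, which 12 of the 32851 promoters carried (0.0365%). The composite element occurred in 6 of the 31 promoters (Asns, Atf3, Chac1, Herpud1, Nupr1 and Trib3) against 1304 of all promoters (3.97%), and 4 of those 6 were among the 7 stress regulators. The TGACGTGG core was found in 0 of the 31 and in 222 of all promoters (0.676%). These matches describe letters in a window. A promoter without a match says only that these letters are not in it.

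The arrays differed in level, with medians from 146 to 234 intensity units, and wild type arrays were on the whole the brighter ones. The median log2 change of the 8398 tested genes on the deposited scale was -0.27 in Snf5-/- and -0.47 in Brg1-/-, and 0.02 in both after quantile normalization, which gives all arrays one distribution. The medians of Brg1-/- and wild type arrays differed by -0.41 on the log2 scale (exact permutation p = 0.0286, the smallest of 35 splits, adjusted to 0.257 over 9 tests), and between Snf5-/- and wild type by -0.26 (exact permutation p = 0.1, the smallest of 20 splits). All values below are therefore quantile-normalized unless the deposited scale is named, changes are read relative to the array as a whole, and a gene is said to rise, fall or change only where limma gave an adjusted p under 0.05 on both scales. Smarcb1 measured 298, 297 and 299 in the Snf5-/- arrays against 745, 741 and 832 in wild type, and Smarca4 461, 471, 446 and 685 in the Brg1-/- arrays against 2407, 2062 and 2072, so each library had the low transcript its label named. In these bulk RNA samples, fewer cells of a type and less RNA per cell cannot be told apart. Of 7 fibroblast markers 0 lay at background throughout a group, and their summed level was 83928.5 to 93258 in wild type, 90814 to 103708 in Snf5-/- and 68022 to 87694 in Brg1-/-. The summed level of 4 skeletal muscle markers was 4881 to 5921 in wild type, 613 to 1779 in Snf5-/- and 418 to 784 in Brg1-/-, and that of 7 epithelial and mesothelial markers 1364 to 1608, 909 to 1412 and 677 to 837, with Epcam at background in all groups and Cdh1 in both mutants. The 4 neural markers summed to 1463 to 1708, 790.0 to 1309 and 769 to 1009, with Sox2 at background in Brg1-/-, and the 4 endothelial ones to 421 to 521, 343 to 426 and 343 to 488, with Pecam1 at background in both mutants. For 10 macrophage and leukocyte markers the ranges were 2221 to 4867, 2495 to 9866 and 2013 to 5178, the highest array being Snf5-/- replicate 2. The part of these cell types in the results below was not tested.

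Of the 33 tested genes, 2 changed in Snf5-/- and 9 in Brg1-/-, and most of the pathway passed in neither mutant. In Snf5-/- 1 gene rose (Asns) and 1 fell (Phgdh), where 3.16% of all tested genes rose and 7.45% fell. In Brg1-/- 0 rose and 9 fell (Xbp1, Dnajb9, Edem1, Herpud1, Sdf2l1, Canx, Slc3a2, Ddit3 and Nupr1), where 3.43% of all genes rose and 12.9% fell. Asking for both scales removed rises rather than falls, as the deposited values of Brg1-/- were shifted down. Over all genes, 1080 were lower on the quantile-normalized scale and 1080 on both, while 1250 were higher on that scale and 288 on both. Asns, Sesn2 and Creld2 were higher in Brg1-/- on the quantile-normalized scale only. In Brg1-/- against Snf5-/- 0 were higher and 4 were lower (Xbp1, Herpud1, Ddit3 and Nupr1), against 0.357% and 2.1% of all genes. The other probe sets of Xbp1, Herpud1 and Nupr1 differed there by -0.28 to -0.91. None of these passed on the quantile-normalized scale (adjusted p from 0.0530 to 0.285). The comparisons with wild type share the 3 wild type arrays, and each mutant also enters the direct comparison.

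On the quantile-normalized scale alone, 5 members were higher and 1 lower in Snf5-/- (all genes 10.6% and 7.47%), 3 higher and 9 lower in Brg1-/- (14.9% and 12.9%), and 0 higher and 4 lower in Brg1-/- against Snf5-/- (2.14% and 2.3%). On the deposited scale, where most genes shifted down with the array medians, the counts were 1 higher and 6 lower in Snf5-/- (3.16% and 16.1%), 0 and 23 in Brg1-/- (3.43% and 44.1%), and 0 and 6 between the mutants (0.369% and 3.93%). The median log2 change of the 33 genes was 0.06 in Snf5-/- and -0.16 in Brg1-/-, beside 0.02 over all genes in both, and 23 of the 33 were below 0 in Brg1-/-. Between the mutants it was -0.22, with 26 of 33 below 0, beside -0.01 over all genes. Counts in Snf5-/- depended on single arrays. Without wild type replicate 2, wild type replicate 3 or Snf5-/- replicate 1 the 2 changed genes became 1, and without Snf5-/- replicate 2 they became 4, through Pdia3 and Canx. Between the mutants, 2 of the 4 calls were left without Brg1-/- replicate 2.

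**Figure D1:**
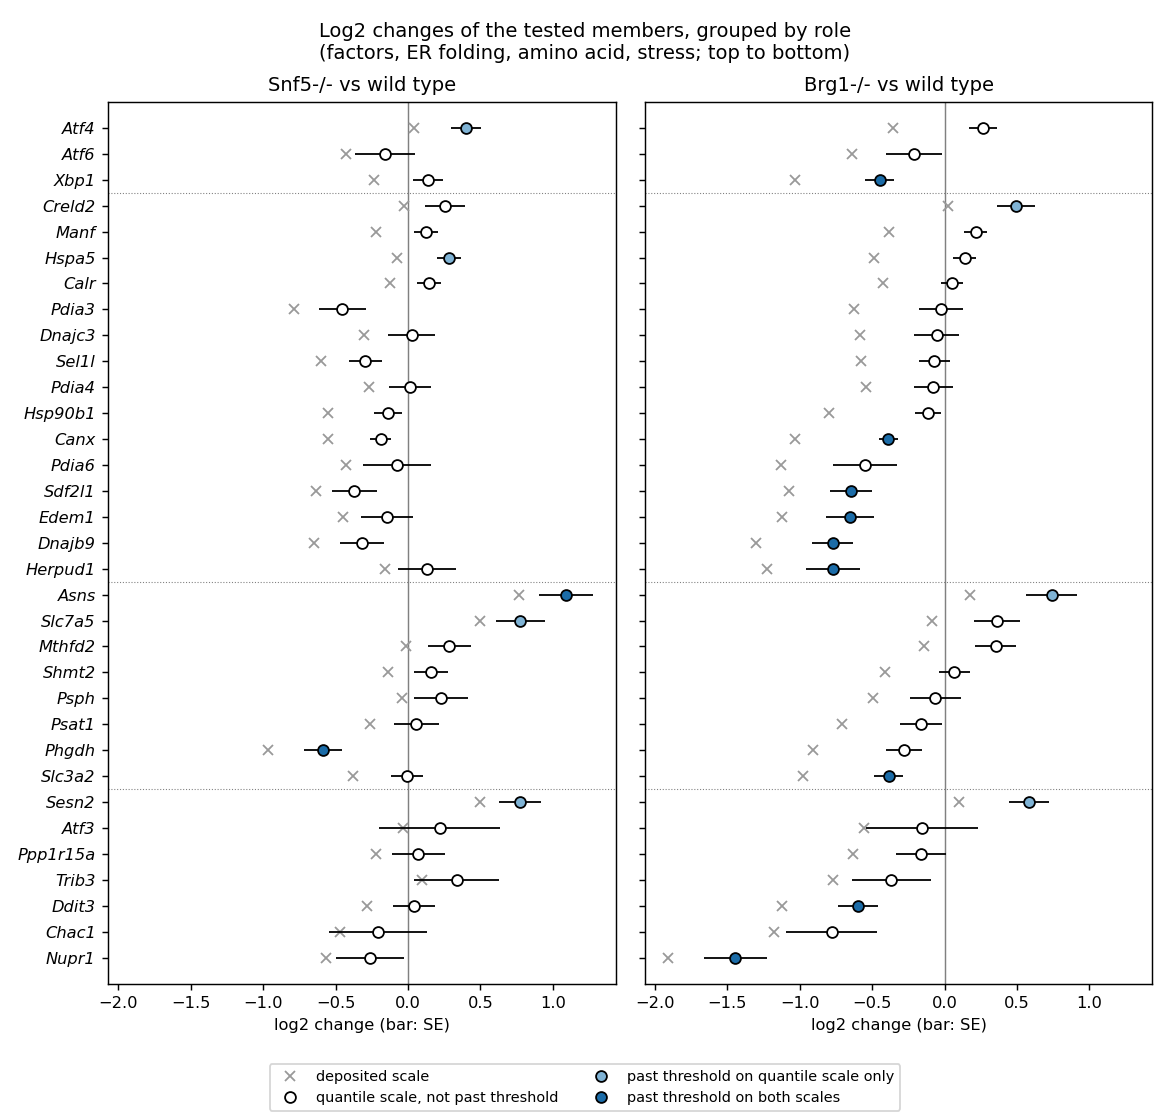
Log2 changes of the 33 tested genes against wild type in Snf5-/- (left) and Brg1-/- (right), grouped from top to bottom as factors, ER folding genes, amino acid genes and stress regulators; circles with SE bars are quantile-normalized values and crosses the deposited scale. In Brg1-/- 9 dark circles lie below 0 and none above it, in Snf5-/- 1 lies on each side (Asns and Phgdh), and crosses sit to the left of circles in both panels.

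Of the 3 factors, Xbp1 fell in Brg1-/- alone of the comparisons with wild type, and neither Atf4 nor Atf6 passed on both scales in any comparison. Xbp1 (chromosome 11, 5520641 to 5525993, GRCm38) measured 2190.0, 2116 and 2139 across wild type, 2311, 2675 and 2136 across Snf5-/- and 1555, 1589.6, 1433 and 1731 across Brg1-/-. All 4 Brg1-/- arrays lay below all 6 others. The change in Brg1-/- was -0.45 ± 0.10 (log2, SE), or 1.36-fold lower (adjusted p = 0.00532), and -1.03 on the deposited scale (adjusted p = 0.000115). Against Snf5-/- it was -0.59 ± 0.10 (adjusted p = 0.00946), and -0.80 on the deposited scale (adjusted p = 0.0115). In Snf5-/- against wild type it was 0.14 ± 0.10 (adjusted p = 0.396), and -0.23 on the deposited scale (adjusted p = 0.374). The 3 other Xbp1 probe sets differed in Brg1-/- by -0.38 to -0.53, in the same direction, without passing on this scale (adjusted p from 0.0830 to 0.0930), and passed on the deposited one.

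Atf4 (chromosome 15, 80255184 to 80257545), whose protein drives the amino acid branch, measured 2567, 2782 and 2347 across wild type, 3511, 3131 and 3524 across Snf5-/- and 3336, 3135, 3211 and 2672 across Brg1-/-. The Snf5-/- arrays lay above the wild type ones, and Brg1-/- replicate 4 lay among the wild type arrays. In Snf5-/- the change was 0.40 ± 0.10 on the quantile-normalized scale (adjusted p = 0.0199) and 0.04 on the deposited scale (adjusted p = 0.889). The first of these did not pass without wild type replicate 1 (0.0527), wild type replicate 3 (0.0919), Snf5-/- replicate 1 (0.0623) or Snf5-/- replicate 3 (0.0524), as adjusted p, and a second Atf4 probe set differed by 0.28 (adjusted p = 0.201). In Brg1-/- Atf4 differed by 0.27 ± 0.10 (adjusted p = 0.0620) and by -0.35 on the deposited scale (adjusted p = 0.0973). Atf6 (chromosome 1, 170704457 to 170868585), the chaperone factor cut in the Golgi, measured 382, 307 and 340.5 across wild type, 306, 321 and 291 across Snf5-/- and 442, 273, 270.3 and 233 across Brg1-/-. Brg1-/- replicate 1 was its highest array and replicate 4 its lowest, so the groups overlapped. Its changes were -0.16 ± 0.21 in Snf5-/- (adjusted p = 0.638) and -0.21 ± 0.19 in Brg1-/- (adjusted p = 0.455), the latter -0.64 on the deposited scale (adjusted p = 0.0214).

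Among the 15 ER folding genes, 5 fell in Brg1-/- and 0 rose, where 12.9% of all tested genes fell and 3.43% rose. In Snf5-/- 0 of the 15 changed, where 7.45% of all genes fell and 3.16% rose. The 5 were Dnajb9 and Sdf2l1, which work with the ER chaperone BiP, 2 genes of the degradation route (Edem1 and Herpud1) and the lectin chaperone Canx. Dnajb9 (chromosome 12, 44205897 to 44210068), a co-chaperone of BiP and a textbook XBP1 target, measured 1393, 1173 and 1118 across wild type, 902, 937 and 1116 across Snf5-/- and 705, 614, 678 and 895 across Brg1-/-. Every Brg1-/- array lay below every other array, and the Snf5-/- arrays lay between. It fell by 0.77 ± 0.14 (adjusted p = 0.00186), or 1.71-fold, and by 1.30 on the deposited scale (adjusted p = 0.000160). In Snf5-/- it differed by -0.32 ± 0.15 without passing on either scale (adjusted p = 0.168 and 0.0580).

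Edem1 (chromosome 6, 108824045 to 108859356), a lectin that picks misfolded glycoproteins for degradation, measured 716, 700.3 and 696 across wild type, 642, 719 and 557 across Snf5-/- and 633, 425, 385 and 386 across Brg1-/-. All Brg1-/- arrays lay below the wild type ones, replicate 1 at the level of the Snf5-/- arrays and the other 3 below them. It fell by 0.65 ± 0.17 in Brg1-/- (adjusted p = 0.0120), and by 1.12 on the deposited scale (adjusted p = 0.000208). On the same quantile-normalized scale the second Edem1 probe set differed by -0.09 (adjusted p = 0.699). Herpud1 (chromosome 8, 94386429 to 94395371), a membrane part of the same degradation machinery, measured 584, 638 and 538 across wild type, 596, 693 and 637 across Snf5-/- and 362, 258, 493 and 298 across Brg1-/-, with all 4 Brg1-/- arrays lowest. It fell by 0.77 ± 0.19 against wild type (adjusted p = 0.00888) and by 1.22 on the deposited scale (adjusted p = 0.000355). Its second probe set differed by -0.18 (adjusted p = 0.424), and by -0.62 (adjusted p = 0.0179) on the deposited scale. Against Snf5-/- Herpud1 fell by 0.90 ± 0.19 (adjusted p = 0.0213), a call lost without Snf5-/- replicate 2 (adjusted p = 0.0598) or Brg1-/- replicate 2 (0.0558). Herpud1 is the member whose promoter, printed above, holds both ERSE-II and a composite element.

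Sdf2l1 (chromosome 16, 17130138 to 17132383), which works with the BiP cycle, measured 311, 379 and 346 across wild type, 272, 257 and 269.7 across Snf5-/- and 198, 271, 212 and 205 across Brg1-/-. Wild type arrays were the highest, and Brg1-/- replicate 2 lay at the level of the Snf5-/- arrays. It fell by 0.65 ± 0.15 in Brg1-/- (adjusted p = 0.00610, and 0.000224 on the deposited scale). In Snf5-/- it differed by -0.37 ± 0.16 (adjusted p = 0.121) and by -0.63 on the deposited scale (adjusted p = 0.0338). Canx (chromosome 11, 50293957 to 50325673), the membrane lectin calnexin that holds new glycoproteins, measured 6796, 6607 and 6736 across wild type, 5726, 6252 and 5691 across Snf5-/- and 4978, 5289.8, 5085 and 5158 across Brg1-/-. On this probe set the 3 groups did not overlap, in the order wild type, Snf5-/-, Brg1-/-. On another, the Brg1-/- arrays (1737 to 1970) lay above the Snf5-/- ones (979 to 1656). The fall in Brg1-/- was 0.39 ± 0.07 (adjusted p = 0.00112), or 1.31-fold. Other Canx probe sets differed there by -0.37 and -0.39 without passing on this scale (adjusted p = 0.136 and 0.173), and passed on the deposited one. In Snf5-/- the change of -0.19 ± 0.07 passed on the deposited scale only (-0.55, adjusted p = 0.0106), while another Canx probe set fell on both scales, by 0.78 (adjusted p = 0.0138) on the quantile-normalized one. Among the 5 genes that fell, Canx alone held an ERSE.

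**Figure D2:**
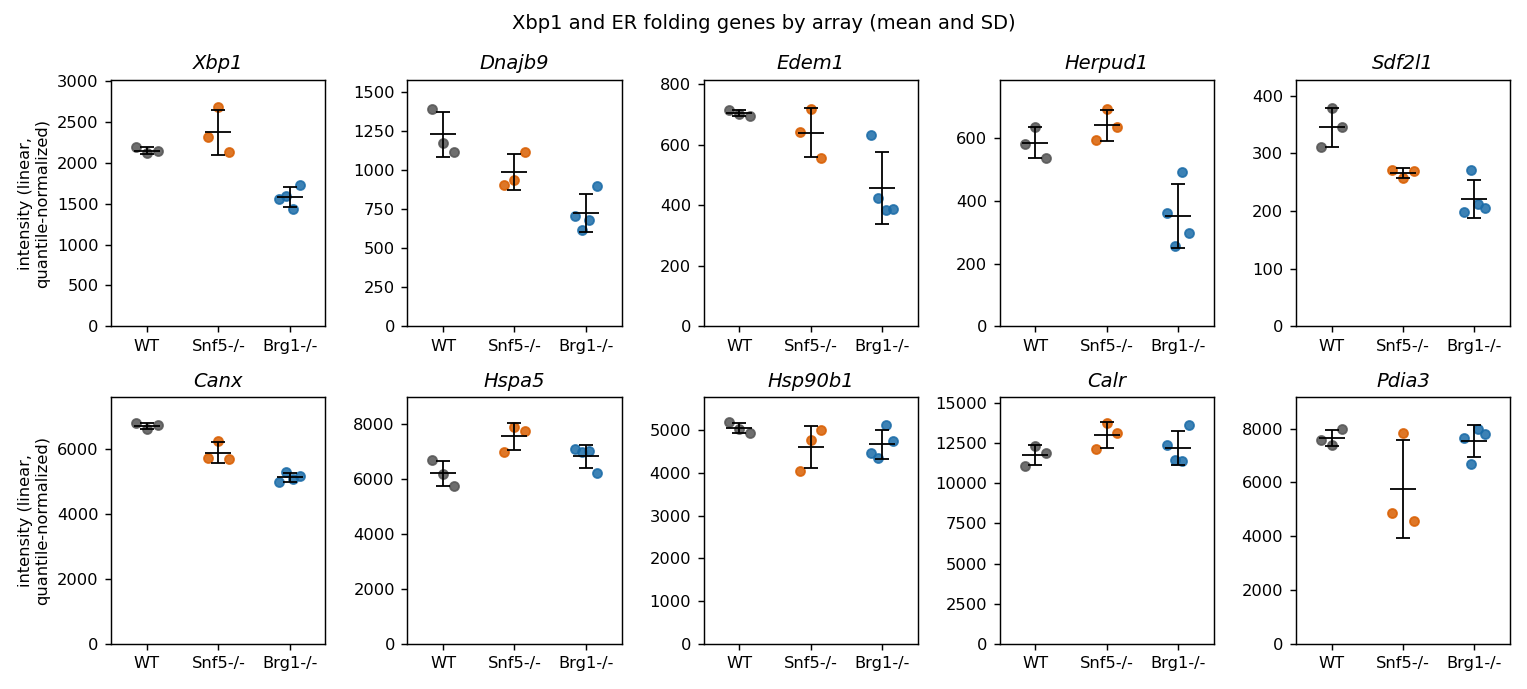
Quantile-normalized intensity (linear axis from 0) of Xbp1 and 9 ER folding genes in each array of wild type (WT), Snf5-/- and Brg1-/-, with the group mean and SD as bars. The 4 Brg1-/- points lie below all wild type points for Xbp1, Dnajb9, Edem1, Herpud1, Sdf2l1 and Canx, and not so for Hspa5, Calr and Pdia3; Pdia3 in Snf5-/- has 2 low points and 1 at the wild type level.

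Hspa5 (chromosome 2, 34772090 to 34776529) encodes BiP, the main ER chaperone and the usual reporter of the response. It measured 6690.2, 6189 and 5767 across wild type, 6999, 7913 and 7775 across Snf5-/- and 7092, 6984, 7043 and 6225 across Brg1-/-. Snf5-/- arrays lay above the wild type ones, and Brg1-/- replicate 4 lay among the wild type arrays with its 3 partners above them. In Snf5-/- the change was 0.28 ± 0.09 on the quantile-normalized scale (adjusted p = 0.0378) and -0.07 on the deposited scale (adjusted p = 0.765), so its direction depended on the scale. The first value did not pass without wild type replicate 2 (0.0984) or 3 (0.151), Snf5-/- replicate 2 (0.0907) or 3 (0.0874), or Brg1-/- replicate 2 (0.0555) or 3 (0.0550), and the second Hspa5 probe set differed by -0.03 (adjusted p = 0.893). In Brg1-/- Hspa5 differed by 0.14 ± 0.08 (adjusted p = 0.226) and by -0.48 on the deposited scale (adjusted p = 0.0122), again in opposite directions. Hsp90b1, the ER form of HSP90, measured 5189, 5035 and 4948 across wild type, 4048, 4778 and 5006 across Snf5-/- and 4458, 4357, 5120.2 and 4755 across Brg1-/-, and its groups overlapped. It differed by -0.14 ± 0.10 in Snf5-/- and -0.12 ± 0.09 in Brg1-/- (adjusted p = 0.345 and 0.364), and by -0.55 and -0.80 on the deposited scale (adjusted p = 0.0304 and 0.000687). Calr, the soluble lectin calreticulin, differed by 0.15 ± 0.08 in Snf5-/- (adjusted p = 0.256) and 0.05 ± 0.08 in Brg1-/- (adjusted p = 0.662), the latter turning to -0.43 on the deposited scale (adjusted p = 0.00324).

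Of the disulfide isomerases, which form and rearrange disulfide bonds, Pdia3 was the one set apart by an array. It measured 7579, 7396 and 7978 across wild type and 7664, 6690.2, 7996 and 7803 across Brg1-/-, but 4857, 7839.5 and 4569 across Snf5-/-, where replicate 2 stood at the wild type level and the other two lay far below every other array. Its difference of -0.45 ± 0.16 in Snf5-/- did not pass (adjusted p = 0.0716, against 0.00301 on the deposited scale). Without Snf5-/- replicate 2, the array with the highest leukocyte markers, it was -0.70 and passed on both scales (adjusted p = 0.000439 and 0.000206). Pdia6 measured 2970.2, 2347 and 2223, then 2482, 1520.3 and 3495 across Snf5-/- and 1564, 1991, 1620.4 and 1666 across Brg1-/-. Its Snf5-/- arrays spanned the whole range, and its Brg1-/- change of -0.55 ± 0.22 passed on the deposited scale only (adjusted p = 0.0818 and 0.00216). Without Snf5-/- replicate 2 or 3, which enter the shared estimate of spread, it passed on both (quantile-normalized adjusted p = 0.0120 and 0.0259). Pdia4 differed by 0.02 ± 0.15 in Snf5-/- and -0.08 ± 0.14 in Brg1-/- (adjusted p = 0.954 and 0.713), the latter -0.54 on the deposited scale (adjusted p = 0.0251).

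The remaining ER genes did not pass on both scales in any comparison. Creld2, a secreted ER stress protein, measured 549, 381 and 486 across wild type and 612, 659.8, 691 and 662 across Brg1-/-, with the Brg1-/- arrays above the wild type ones. Its change of 0.49 ± 0.13 passed on the quantile-normalized scale (adjusted p = 0.0149, or 0.0788 without wild type replicate 2) and was 0.03 on the deposited scale (adjusted p = 0.925). Manf, a secreted ER stress-induced factor, differed by 0.12 ± 0.08 in Snf5-/- and 0.21 ± 0.08 in Brg1-/- (adjusted p = 0.335 and 0.0603). Sel1l, the adaptor of the degradation ligase HRD1, differed by -0.29 ± 0.11 in Snf5-/- (adjusted p = 0.0892, 0.0268 on the deposited scale) and -0.07 ± 0.10 in Brg1-/- (adjusted p = 0.661). In Brg1-/- Sel1l differed by -0.58 on the deposited scale (adjusted p = 0.0103). Dnajc3, the co-chaperone P58IPK that inhibits PERK, had probe sets that disagreed. The brightest differed by -0.05 ± 0.15 in Brg1-/- (adjusted p = 0.824), and by -0.59 on the deposited scale (adjusted p = 0.0251). Others gave -0.85 (adjusted p = 0.00139) and -0.39 (adjusted p = 0.0157) on the quantile-normalized scale, so the Dnajc3 level in Brg1-/- is uncertain.

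Of 42 other genes of ER folding, secretion and degradation tested, 8 fell and 0 rose in Brg1-/-, with a median log2 change of -0.06, beside 12.9% and 3.43% of all genes. The 3 of smallest adjusted p were Sec63, a DnaJ protein of the ER import channel (-0.79 ± 0.15, adjusted p = 0.00225), Wfs1, an ER membrane protein lost in Wolfram syndrome (-0.91 ± 0.20, adjusted p = 0.00520), and Creb3, a membrane-bound factor related to ATF6 (-0.62 ± 0.14, adjusted p = 0.00610). In Snf5-/- 1 rose and 0 fell, with a median of 0.10, beside 3.16% and 7.45% of all genes. The riser was Creb3l2, a relative of Creb3 that raises secretory capacity, at 597, 542 and 564 across wild type, 1168, 1145 and 1225 across Snf5-/- and 959, 975, 956 and 1012 across Brg1-/-. Wild type arrays were lower than all 7 mutant arrays. Creb3l2 rose by 1.06 ± 0.09 in Snf5-/- (adjusted p = 3.17e-05), and by 0.78 on the deposited scale (adjusted p = 0.00965). Between the mutants 3 were lower and 0 higher in Brg1-/-, beside 2.1% and 0.357% of all genes. The 3 were Ero1a, Pdia5 and Derl1 (-0.68 ± 0.14, -0.59 ± 0.14 and -0.44 ± 0.11, adjusted p = 0.0223, 0.0410 and 0.0445). Ero1a, the oxidase that feeds the isomerases, lost its call without Snf5-/- replicate 2 or Brg1-/- replicate 2 or 3, with quantile-normalized adjusted p up to 0.0743. Pdia5, a further isomerase, lost its call without any 1 of 8 arrays, all but wild type replicate 1 and Snf5-/- replicate 1 (adjusted p up to 0.152), and Derl1, a channel part of the degradation route, without any 1 of the 10 (up to 0.119).

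Of the 8 tested amino acid genes of the ATF4 branch, Asns rose and Phgdh fell in Snf5-/-, and Slc3a2 fell in Brg1-/-. Of all tested genes, 3.16% rose and 7.45% fell in Snf5-/-, and 3.43% rose and 12.9% fell in Brg1-/-. Asns (chromosome 6, 7675165 to 7693209), which makes asparagine from aspartate and glutamine, measured 1154, 881 and 986 across wild type, 2605, 2220.5 and 1675 across Snf5-/- and 2085, 1669, 1307 and 1715 across Brg1-/-. All 7 mutant arrays lay above all wild type arrays. In Snf5-/- it rose by 1.09 ± 0.19, or 2.13-fold (adjusted p = 0.00208), and by 0.76 on the deposited scale (adjusted p = 0.0215). Leaving out Snf5-/- replicate 1 ended the deposited call (adjusted p = 0.103), as did leaving out replicate 2 (0.0992) or 3 (0.0620) of wild type. In Brg1-/- the change was 0.74 ± 0.17 on the quantile-normalized scale (adjusted p = 0.00789) and 0.18 on the deposited scale (adjusted p = 0.484). The second Asns probe set differed by 0.85 (adjusted p = 0.00902) in Snf5-/- and by 0.33 (adjusted p = 0.186) in Brg1-/-. Between the mutants Asns differed by -0.35 ± 0.17 (adjusted p = 0.264), and its composite element is printed above.

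Phgdh (chromosome 3, 98313171 to 98339969), which takes the first step from glycolysis to serine, measured 3961, 3007 and 3664 across wild type, 2576, 2479 and 2024 across Snf5-/- and 2879.7, 3110.4, 3148 and 2496 across Brg1-/-. Snf5-/- arrays lay below all wild type arrays, and Brg1-/- arrays overlapped both. It fell by 0.58 ± 0.13 in Snf5-/-, or 1.5-fold (adjusted p = 0.00985), and by 0.97 on the deposited scale (adjusted p = 0.00222). In Brg1-/- its difference of -0.28 ± 0.12 did not pass (adjusted p = 0.111, 0.000733 on the deposited scale), whereas other Phgdh probe sets gave -0.64 (adjusted p = 0.0143) and -0.51 (adjusted p = 0.0234). Between the mutants Phgdh differed by 0.30 ± 0.12 (adjusted p = 0.181). The design marks all its single-symbol probe sets as ones whose probes may bind related sequences, and 2 further ones carry the symbol of a predicted gene, so the Phgdh values may hold signal of such copies.

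Of the later enzymes of serine and one-carbon synthesis, 0 of 4 passed on both scales in any comparison. The shares over all tested genes were 3.16% higher and 7.45% lower in Snf5-/- and 3.43% and 12.9% in Brg1-/-. Between the mutants they were 0.357% and 2.1%. Psat1, the aminotransferase of serine synthesis, measured 1201, 1300.3 and 1229 across wild type, 1349.9, 1109 and 1446 across Snf5-/- and 1080.5, 1285, 1273 and 854 across Brg1-/-, with overlapping groups. It differed by 0.06 ± 0.16 in Snf5-/- and -0.16 ± 0.15 in Brg1-/- (adjusted p = 0.835 and 0.439), and its second probe set gave -0.65 (adjusted p = 0.0395) in Brg1-/-. On the deposited scale Psat1 differed by -0.71 in Brg1-/- (adjusted p = 0.00877). Psph, the phosphatase of the last step, differed by 0.23 ± 0.19 and -0.06 ± 0.17 (adjusted p = 0.436 and 0.814). Shmt2, the mitochondrial enzyme that splits serine into glycine and a one-carbon unit, differed by 0.16 ± 0.12 and 0.07 ± 0.11 (adjusted p = 0.381 and 0.682). Mthfd2, the next mitochondrial folate enzyme, measured 662, 695 and 675 across wild type, 804, 835 and 835 across Snf5-/- and 1094, 846, 896 and 671 across Brg1-/-. Snf5-/- arrays lay above the wild type ones and Brg1-/- replicate 4 among them. Its differences of 0.28 ± 0.15 and 0.35 ± 0.14 did not pass (adjusted p = 0.213 and 0.0800). The second Mthfd2 probe set, whose groups overlapped, differed by 0.01 and 0.10 (adjusted p = 0.980 and 0.821).

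The amino acid exchanger LAT1 is a pair of Slc7a5, the transporting chain, and Slc3a2, the heavy chain. Slc7a5 measured 414, 296 and 427 across wild type, 691, 612 and 621 across Snf5-/- and 388, 479, 549 and 524 across Brg1-/-. Snf5-/- arrays lay above all the others. Its change in Snf5-/- was 0.78 ± 0.17 on the quantile-normalized scale (adjusted p = 0.00802) and 0.50 on the deposited scale (adjusted p = 0.124). Slc3a2 measured 2217, 2412 and 2323 across wild type, 2326, 2552 and 2062 across Snf5-/- and 1947, 1697, 1593 and 1869.7 across Brg1-/-, with the Brg1-/- arrays below all the others. It fell by 0.39 ± 0.10 in Brg1-/- (adjusted p = 0.0132), and by 0.98 on the deposited scale (adjusted p = 0.000117). Without wild type replicate 2 the adjusted p was 0.0611, which leaves 0 of the 8 amino acid genes changed in Brg1-/-. In Snf5-/- Slc3a2 differed by -0.01 ± 0.11 (adjusted p = 0.972). Slc7a5 in Brg1-/- differed by 0.36 ± 0.16 (adjusted p = 0.108) and by -0.09 on the deposited scale (adjusted p = 0.740).

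**Figure D3:**
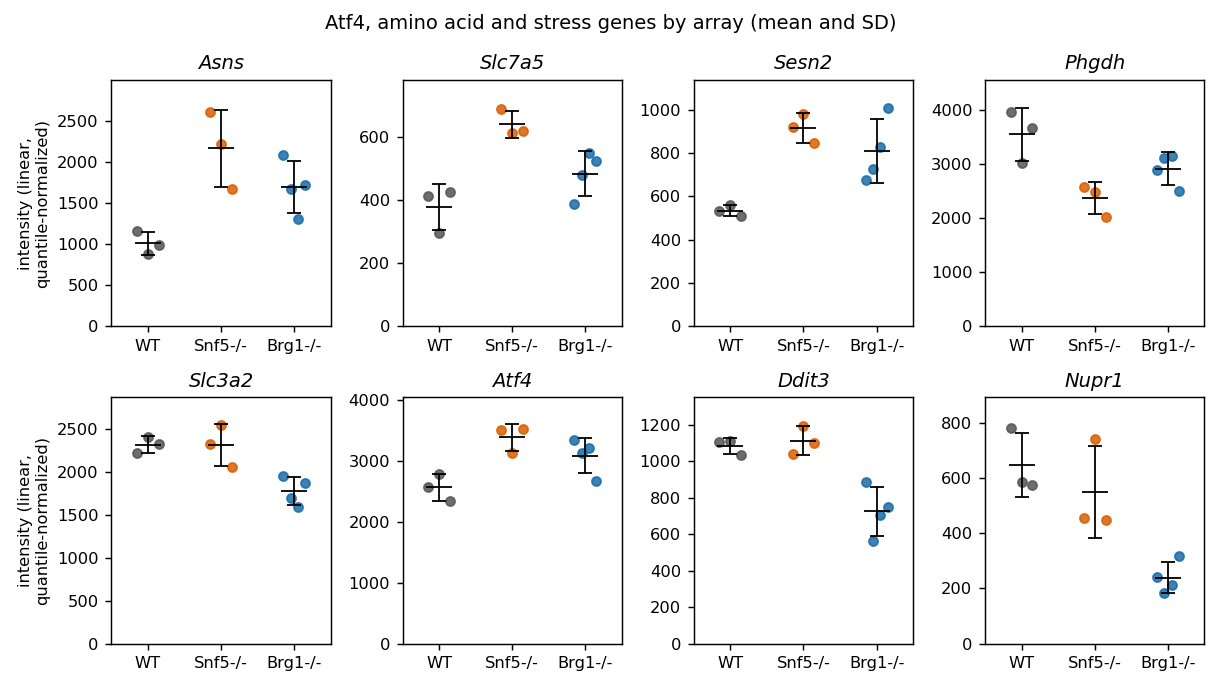
Quantile-normalized intensity (linear axis from 0) of Atf4, 4 amino acid genes and 3 stress regulators in each array of wild type (WT), Snf5-/- and Brg1-/-, with the group mean and SD as bars. Asns and Sesn2 are higher in all 7 mutant arrays than in wild type, Phgdh is lowest in Snf5-/- on average, and Ddit3, Nupr1 and Slc3a2 have all 4 Brg1-/- points below the other groups.

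A wider list of ATF4 and amino acid response genes, including the tRNA synthetases, had 32 genes tested. In Snf5-/- 1 rose and 3 fell, with a median of 0.04, beside 3.16% and 7.45% of all genes. In Brg1-/- 0 rose and 5 fell, with a median of -0.07, beside 3.43% and 12.9% of all genes. These counts lay near those shares. The riser in Snf5-/- was Eif2ak4, which encodes GCN2, at 1.05 ± 0.26 (adjusted p = 0.0147), a call lost without any 1 of 8 arrays, all but Brg1-/- replicates 3 and 4 (up to 0.160). The fallers were Vldlr, a lipoprotein receptor (-0.79 ± 0.21, adjusted p = 0.0244), Nars, the asparagine tRNA synthetase (-0.42 ± 0.11, adjusted p = 0.0245), and Stc2, a secreted stanniocalcin (-0.94 ± 0.29, adjusted p = 0.0411). Each of these 3 calls was lost without single arrays. For Vldlr these were wild type replicates 1 and 3 and Snf5-/- replicate 3 (adjusted p up to 0.114), and for Nars all 3 wild type arrays and Snf5-/- replicate 1 (up to 0.0892). For Stc2 they were all 3 wild type arrays, Snf5-/- replicates 1 and 3 and Brg1-/- replicate 2 (up to 0.148). In Brg1-/- the 3 of smallest adjusted p were Atf5, a factor that ATF4 induces (-0.76 ± 0.12, adjusted p = 0.000831), Jdp2, a repressor of the AP-1 family (-0.66 ± 0.12, adjusted p = 0.00199), and Eif4ebp1, a brake on cap-dependent translation (-0.79 ± 0.17, adjusted p = 0.00478). Atf5 measured 1139, 1512 and 1420.3 across wild type, 1326, 1330.5 and 1309 across Snf5-/- and 799, 701, 759.9 and 930.0 across Brg1-/-, where all 4 arrays were lowest. Between the mutants Atf5 was lower in Brg1-/- as well (-0.74 ± 0.12, adjusted p = 0.00932), and so was Aars, the alanine tRNA synthetase (-0.49 ± 0.11, adjusted p = 0.0261), which lost its call without Snf5-/- replicate 1 or 2 or Brg1-/- replicate 2 or 3, with adjusted p up to 0.0965.

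Of the 7 stress regulators, Nupr1 and Ddit3 fell in Brg1-/- and 0 of the 7 changed in Snf5-/- on both scales. Over all tested genes 12.9% fell in Brg1-/-, and in Snf5-/- 3.16% rose and 7.45% fell. Nupr1 (chromosome 7, 126623246 to 126625470), a small chromatin protein induced by many stresses, measured 780.0, 583 and 575 across wild type, 456, 741 and 447 across Snf5-/- and 243, 185, 213 and 317 across Brg1-/-. The Brg1-/- arrays were the 4 lowest, and Snf5-/- replicate 2 lay at the wild type level with the other two below it. Nupr1 fell by 1.45 ± 0.22 in Brg1-/-, or 2.72-fold (adjusted p = 0.000535), and the change was -1.91 on the deposited scale (adjusted p = 1.31e-05), which was the largest change of the 33 genes there on either scale. Its second probe set fell by 1.25 (adjusted p = 0.00270). Against Snf5-/- it was -1.18 ± 0.22 (adjusted p = 0.0129, 0.00476 on the deposited scale).

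Ddit3 (chromosome 10, 127290793 to 127296291), the factor CHOP that tips lasting ER stress towards cell death, measured 1106, 1109 and 1034 across wild type, 1043, 1196 and 1102 across Snf5-/- and 886, 562, 706 and 747 across Brg1-/-, with all Brg1-/- arrays lowest. It fell by 0.60 ± 0.14 against wild type (adjusted p = 0.00672) and by 1.12 on the deposited scale (adjusted p = 0.000240). Against Snf5-/- its change of -0.64 ± 0.14 (adjusted p = 0.0253) lost its call without Snf5-/- replicate 2 (adjusted p = 0.0717), Brg1-/- replicate 2 (0.0536) or Brg1-/- replicate 3 (0.0743), and on the deposited scale without Snf5-/- replicate 3 (0.0633). Sesn2, a sestrin and a leucine-binding inhibitor of mTORC1, went the other way on the quantile-normalized scale. It measured 535, 561 and 509 across wild type, 921, 982 and 845 across Snf5-/- and 675, 726, 831 and 1009.9 across Brg1-/-, and all 7 mutant arrays exceeded all wild type arrays. Its changes were 0.77 ± 0.14 in Snf5-/- (adjusted p = 0.00344) and 0.58 ± 0.14 in Brg1-/- (adjusted p = 0.00735), but 0.49 and 0.10 on the deposited scale (adjusted p = 0.0975 and 0.682). A second Sesn2 probe set, whose groups overlapped, differed by 0.61 and 0.54 without passing (quantile-normalized adjusted p = 0.0881 and 0.0858).

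The other 4 regulators were dim or variable. Chac1, which breaks down glutathione, measured 234, 354 and 413 across wild type, 413, 308 and 174 across Snf5-/- and 297, 182, 144 and 163 across Brg1-/-, and the groups overlapped. Its difference of -0.78 ± 0.32 in Brg1-/- passed on the deposited scale only (adjusted p = 0.0860 and 0.00123), and on both without Snf5-/- replicate 3 or Brg1-/- replicate 1 (quantile-normalized adjusted p = 0.0449 and 0.0313). Trib3, a pseudokinase that restrains ATF4 output, measured 122, 191 and 218, 195, 263 and 199.7 and 134, 112, 102 and 207 in the same order and differed by -0.37 ± 0.28 in Brg1-/- (adjusted p = 0.357). On the deposited scale Trib3 differed by -0.77 in Brg1-/- (adjusted p = 0.0289). Atf3, an early stress factor, measured 183, 185 and 205, 185, 313 and 188 and 391, 162, 88.1 and 154. Its highest arrays were Brg1-/- replicate 1 and Snf5-/- replicate 2, and its SE was the widest of the members, at 0.22 ± 0.42 in Snf5-/- and -0.16 ± 0.39 in Brg1-/- (adjusted p = 0.765 and 0.799). Ppp1r15a, the GADD34 subunit that reverses eIF2alpha phosphorylation, differed by 0.07 ± 0.18 and -0.17 ± 0.17 (adjusted p = 0.829 and 0.516). In Brg1-/- Ppp1r15a differed by -0.63 on the deposited scale (adjusted p = 0.0171). Of the 6 genes with a composite element, Asns rose in Snf5-/- while Herpud1 and Nupr1 fell in Brg1-/-, and Atf3, Chac1 and Trib3 passed on both scales in neither. Over all tested genes 3.16% rose in Snf5-/- and 12.9% fell in Brg1-/-. The second Herpud1 probe set did not pass in Brg1-/- on the quantile-normalized scale (-0.18, adjusted p = 0.424).

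Set side by side over the members, the ER class average was lowest in Brg1-/- and the amino acid class average highest in Snf5-/-. Each gene's log2 value was taken relative to its own mean over the 10 arrays and averaged over the 15 ER genes or the 8 amino acid genes of an array. The ER class averaged 0.11 ± 0.02 in wild type (SD, n = 3), 0.04 ± 0.07 in Snf5-/- (n = 3) and -0.11 ± 0.04 in Brg1-/- (n = 4). The amino acid class averaged -0.11 ± 0.05, 0.14 ± 0.11 and -0.03 ± 0.09. Neither average was shared by all genes of its class. In Brg1-/- the median ER change was -0.08. The ER genes that fell there ran from -0.77 to -0.39 and the others from -0.55 to 0.49. In Snf5-/- the largest amino acid changes were Asns (1.09) and Slc7a5 (0.78), with Phgdh at -0.58 and the others from -0.01 to 0.28. Slc7a1 is left out, as it failed the filter. The ER minus amino acid difference was 0.19, 0.27 and 0.18 for wild type arrays, -0.27, -0.10 and 0.06 in Snf5-/- and -0.18, -0.12, -0.07 and 0.05 in Brg1-/-. All 3 wild type arrays lay above all 7 mutant arrays, and the mutants overlapped each other. On the deposited scale the wild type arrays were at 0.18, 0.28 and 0.20 and the highest mutant array, Snf5-/- replicate 3, at 0.04. The wider lists did not repeat this, with median log2 changes of 0.10 (ER) and 0.04 (ATF4) in Snf5-/- and of -0.06 and -0.07 in Brg1-/-. No p-value is given for the class averages, since the genes were chosen with results of these arrays known.

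**Figure D4:**
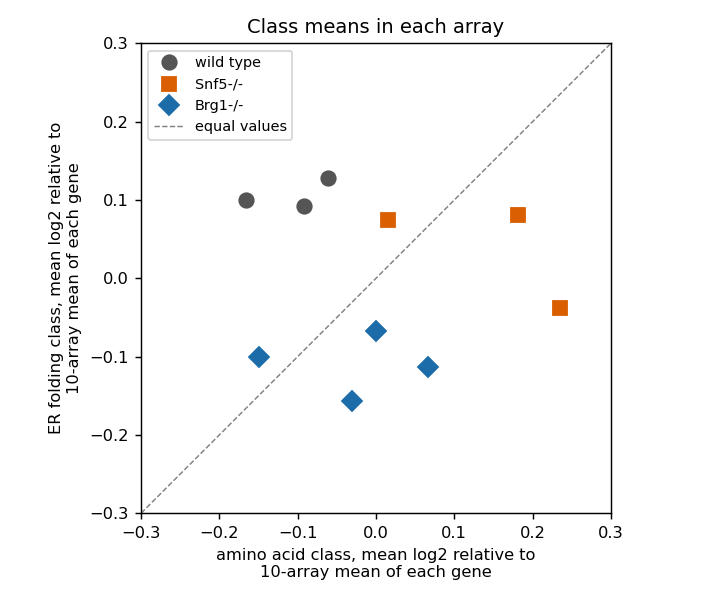
Mean log2 value of the 15 ER folding genes (vertical) against that of the 8 amino acid genes (horizontal) in each of the 10 arrays, each gene taken relative to its own 10-array mean, with a dashed line of equal values. The 3 wild type arrays lie farthest above the line, at ER minus amino acid differences of 0.18 to 0.27, the Snf5-/- arrays lie to the right of wild type and the Brg1-/- arrays below it.

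By counts, in Brg1-/- 5 of 15 ER genes fell and 0 rose against 1 of 8 amino acid genes that fell and 0 that rose, with medians of -0.08 and 0.00, beside 12.9% of all genes that fell. The amino acid gene was Slc3a2, whose call was lost without wild type replicate 2. These counts also depend on the probe set taken for a gene. Other probe sets of the amino acid genes Psat1 (-0.65) and Phgdh (-0.64 and -0.51) fell in Brg1-/- on both scales. So did others of the ER gene Dnajc3 (-0.85 and -0.39). The second probe sets of Edem1 and Herpud1 did not pass on the quantile-normalized scale (-0.09 and -0.18). Nor did the other probe sets of Canx (-0.37 and -0.39). In Snf5-/- 0 of 15 ER genes changed on both scales, while 1 of 8 amino acid genes rose and 1 fell, with medians of -0.08 and 0.19. Over all genes 3.16% rose and 7.45% fell there. Without Snf5-/- replicate 2 the ER count in Snf5-/- became 2 (Canx and Pdia3, both lower). Between the mutants 1 ER gene and 0 amino acid genes were lower in Brg1-/-, beside 2.1% of all genes, with class medians of -0.09 and -0.26. The ER count became 2 without Brg1-/- replicate 1, when Edem1 joined, and 0 without Brg1-/- replicate 2. The difference between class medians was -0.27 in Snf5-/-, -0.08 in Brg1-/- and 0.16 between the mutants. Each of the 3 moved with single arrays. The first ran from -0.20 without Snf5-/- replicate 1 to -0.39 without replicate 3. The value in Brg1-/- became -0.03 without wild type replicate 3, -0.13 without wild type replicate 1, -0.12 without Brg1-/- replicate 3 and -0.17 without Brg1-/- replicate 4. Between the mutants it became -0.00161 without Snf5-/- replicate 1, 0.00894 without Brg1-/- replicate 4 and 0.10 without Brg1-/- replicate 3.

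The ER class can also be listed by ERSE. In Brg1-/- against wild type, where 12.9% of all tested genes fell, 1 of the 7 genes with an ERSE fell (Canx). Their median log2 change was -0.05, with a range from -0.55 for Pdia6 to 0.49 for Creld2. Of the 7 with a promoter entry and no ERSE 4 fell in Brg1-/- (Dnajb9, Edem1, Herpud1 and Sdf2l1), with a median of -0.65 and a range from -0.77 to -0.02. Herpud1 is listed here although it holds ERSE-II. In Snf5-/- the medians were 0.02 with an ERSE and -0.29 without, and 0 genes of either set changed, where 3.16% of all genes rose and 7.45% fell. The counts depend on the probe set taken for a gene. Dnajc3, which holds an ERSE, had other probe sets that fell in Brg1-/- on both scales (-0.85 and -0.39, given above). The second probe sets of Edem1 and Herpud1, genes without an ERSE, did not pass on the quantile-normalized scale (-0.09 and -0.18). Nor did the other probe sets of Canx, which holds an ERSE (-0.37 and -0.39). This split was made after the values were known and is a description of 14 genes, with no test.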

How the data were processed

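RNA of 10 MEF samples was hybridized to Affymetrix arrays, and the labels do not say whether the replicates were separate cultures. The authors deposited MAS5 intensity values on a linear scale, per the submitters' processing notes. For MAS5, no version, scaling target or filter is given in the sources used here. Log2 values were taken of the deposited intensities with no pseudocount and quantile-normalized over the 10 arrays, and the deposited scale was fitted beside them because array medians spanned over 0.5 (log2). Precision is limited by the number of arrays.

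Probe sets with a single symbol, at or above the 40th percentile of the array in at least 3 arrays, were kept, and the brightest on average stood for its gene, which left 8398 genes. The background level of an array is the brightest of its 27 Bacillus control probe sets (26.7 to 57.4). limma 3.58.1 (R 4.3.3) fitted a mean per group over all 3 groups, which left 7 residual degrees of freedom, and eBayes used an intensity trend. Benjamini-Hochberg adjustment ran over all genes in each of 3 two-sided comparisons, with a threshold of 0.05. The fit was tested on simulated data. Class averages and gene lists carry no test.

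The members and lists were chosen with earlier results of these data known. Every member is named with its log2 change, its array values or both, though not always for each group. Of other pathway genes, up to 3 per list, comparison and direction with the smallest adjusted p among those past the threshold on both scales are named, and Smarcb1 and Smarca4 check the genotypes. Aminoacyl-tRNA synthetases were matched under older symbols. Of the wider lists, 42 of 46 ER genes and 34 of 40 ATF4 genes were on the array, 32 of the latter tested. Promoter entries of Manf, Slc7a5 and Atf6, and protein sequences, were not used here. Alternatives were the deposited scale, median scaling, a pseudocount of 32, other filters, the mean of probe sets, each other probe set alone, only the groups compared, no trend, a replicate block and leaving out each array.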

Additional observations from a re-analysis of the deposited data

Results flagged for a closer look

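Within the 4 Brg1-/- arrays, Hspa5 (BiP) had 1 array far from the others. Replicate 4, at 6225 intensity units, lay below 7092, 6984 and 7043 in replicates 1 to 3. On log2 values, its gap to the nearest of them was 0.882 of the range of the group, above the critical value of 0.829 for 4 samples. It was 1 such array among the 33 tested members, and chance gives about 1 in 20 groups. Its cause was not tested.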

How the results depend on the processing

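Over 19 settings, 1716 of 1875 values for single members kept their direction and their side of the threshold, 37 lost the threshold and 49 gained it. A further 70 changed sign with neither value past the threshold, 22 of them on the deposited scale. In 3 cases, all between scales, the sign changed and 1 of the values had passed. These were Hspa5 in Snf5-/- (-0.0737 on the deposited scale, adjusted p = 0.765), Hspa5 in Brg1-/- (-0.48, adjusted p = 0.0122) and Calr in Brg1-/- (-0.43, adjusted p = 0.00324). The second Hspa5 probe set alone also turned the Snf5-/- change, to -0.0318 (adjusted p = 0.893). The cause was not tested for any of them.

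In Brg1-/- the deposited scale called 3990 genes, 23 members and 13 ER genes, in Snf5-/- 5 ER genes, and between the mutants 2 ER genes and 1 amino acid gene. All of these members were lower. On that scale 44.1% of all tested genes were lower in Brg1-/-, 16.1% in Snf5-/- and 3.93% between the mutants. The single ER gene called in Snf5-/- on the quantile-normalized scale became 0 with no filter, with only the groups compared or with no trend. Between the mutants, only the groups compared gave 148 genes, 2 members and 0 ER genes, no trend gave 192 genes, the mean of probe sets 234 genes and 0 ER genes, and median scaling or a stricter filter 1 amino acid gene each. Searching the forward strand alone left 1 member with a composite element. Leaving out each array gave 918 to 1662 genes in Snf5-/-, 1638 to 2508 in Brg1-/- and 121 to 492 between the mutants. Members called on the quantile-normalized scale were 4 to 7, 10 to 15 and 2 to 5, ER genes 0 to 2, 5 to 8 and 0 to 2, and amino acid genes 3 to 3, 1 to 3 and 0 to 1. On both scales members were 1 to 4, 8 to 11 and 2 to 5, ER genes 0 to 2, 5 to 6 and 0 to 2, and amino acid genes 1 to 2, 0 to 1 and 0 to 0. The ER minus amino acid median was -0.39 to -0.20, -0.17 to -0.03 and -0.00161 to 0.210.

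Same-numbered arrays of different groups correlated at -0.0738 to 0.105 in their deviations (9 pairs) and others at -0.124 to 0.0905 (24 pairs). The ranges overlapped, so they gave no sign of pairing by replicate number. With so few arrays per group they cannot exclude it, and the labels do not say whether arrays were paired. With the replicate number as a block, 1556, 2169 and 462 genes and 6, 14 and 4 members were called, Mthfd2 (adjusted p = 0.0202) and Atf4 (0.0321) passing in Brg1-/-, Dnajb9 passing (0.0391) and Herpud1 not (0.0508) between the mutants, and the ER minus amino acid median there at 0.00814. The planned look at protein ends was not run. MAS5 scaling of unknown target limits every absolute level.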
